A study of Mus musculus with 11 samples.

Results

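The genes described here are the nuclear-encoded subunits of the mitochondrial respiratory chain. They were taken by symbol as all protein-coding genes named Nduf followed by a, b, c, s or v, Sdha to Sdhd, Uqcr, Cox4 to Cox8, or Atp5, which gave 93 of the 50686 genes in the count tables. By role they were 7 core and 30 accessory subunits of complex I, 8 assembly factors of complex I, 4 subunits of complex II, 8 of complex III, 11 of complex IV, 17 of complex V and 8 tissue-restricted or condition-dependent isoforms. Placement followed the gene symbol, and some genes so placed, such as Ndufa4, Cox7a2l and Atp5s, may not be true subunits of that complex. RNA-seq counts came from 11 libraries, 1 mouse each, of GL261 allografts, which are grown from a mouse glioma line injected into the brain of C57BL/6 mice. Of these, 6 were of bulk tumour, with 3 Rheb1 fl/fl (mice 35, 38 and 110) and 3 Cx3cr1-Rheb1 Δ/Δ mice (26, 36 and 37). The other 5 were of TAM-MG, the tumour-associated microglia sorted as CD11b+ CD45low cells, with 2 Rheb1 fl/fl (74 and 78) and 3 Cx3cr1-Rheb1 Δ/Δ mice (54, 63 and 65). Labels name the genotypes WT and Rheb1 KO. Rheb1 encodes the GTPase that activates mTOR complex 1. All mice carried the floxed gene and received tamoxifen 3 weeks before the injection, at an age of 6 weeks, and tissue was taken 3 weeks after the injection. The Cre of the Δ/Δ mice is a tamoxifen-inducible CreERT2 knocked into Cx3cr1, so it acts in Cx3cr1-expressing cells and leaves the injected glioma cells untouched, and the controls lack Cre. Bulk RNA was extracted from formalin-fixed, paraffin-embedded tissue and TAM-MG RNA from freshly sorted cells.

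The respiratory chain sits in the inner mitochondrial membrane. Complex I takes electrons from NADH and complex II from succinate, complex III passes them to cytochrome c, complex IV hands them to oxygen, and complex V uses the proton gradient built on the way to make ATP. Most subunits are encoded in the nucleus and imported, and a few are encoded by the mitochondrial genome. mTOR complex 1 is known to act on mitochondrial biogenesis and on the translation of nuclear-encoded mitochondrial mRNAs. Messenger RNA levels, which are all that was measured here, need not follow translation or the activity of the complexes.

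Depth was 14940787 to 21991348 counts per bulk library and 20765767 to 29947977 per TAM-MG library, and the respiratory chain genes held 233488 to 430200 of these counts. The lists of microglial markers summed to 23800 to 44900 CPM, the counts of a gene scaled to the size of its library, in TAM-MG and to 31.8 to 458 CPM in bulk tumours, and neuronal markers to at most 55.2 CPM in TAM-MG, where Gad1 and Gad2 were at 0 in both fl/fl libraries. Rheb was measured at 195.6 to 285.5 CPM in fl/fl and 105.1 to 189.5 CPM in Δ/Δ bulk tumours, and at 102.5 and 203.9 CPM in fl/fl and 84.7 to 89.5 CPM in Δ/Δ TAM-MG, so the Δ/Δ libraries lay below the fl/fl libraries in both experiments. Nothing in the labels gives a sequencing batch or date. Separate mice were the replicates, and with 3 against 3 or 2 against 3 mice the tests rest on few animals.

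To ask whether loss of Rheb1 in microglia goes with a different expression of the respiratory chain, Δ/Δ and fl/fl TAM-MG were compared first. Nearly all genes of the chain lay on the lower side in Δ/Δ TAM-MG, by amounts that were small for each gene. Of 91 genes that passed the filter on low counts, 83 had a negative and 8 a positive log2 fold change, and the median was -0.38, beside 0.08 over all 14872 genes tested. It remained -0.38 when the isoforms without counts in the fl/fl libraries were set to their lower bound. In edgeR's quasi-likelihood test, with p adjusted across all genes, no gene reached the threshold (0.05 for the adjusted p together with 1.5-fold), and the share called over all genes was 0% as well. At an unadjusted p under 0.05, 6 of the 91 genes were lower and 0 higher, where 2.3% of all genes were lower and 5.47% higher. The number lower was 42 with an equal mean of log CPM (8.18% of all genes), 2 with the correction for length and GC content (2.41%) and 14 with DESeq2 (3.27%). The likelihood ratio test called 0 of the 91 genes, beside 1.65% of all genes, and limma on log2(TPM + 1) called 0, beside 0%. DESeq2 called 1, on the lower side, beside 152 lower and 791 higher of the 16537 genes with an adjusted p. Libraries separated more often than this. For 38 genes every Δ/Δ library lay below both fl/fl libraries and for 2 every one lay above, beside 11.5% and 14.6% of all genes. The TPM values, made by the authors with another program, gave 36 genes below and 2 above out of 91, beside 9.22% and 17.3% of all genes. Of the genes above, only Cox7a1 was the same on both scales, with Ndufa4l2 in counts and Atp5f1 in TPM.

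**Figure D1:**
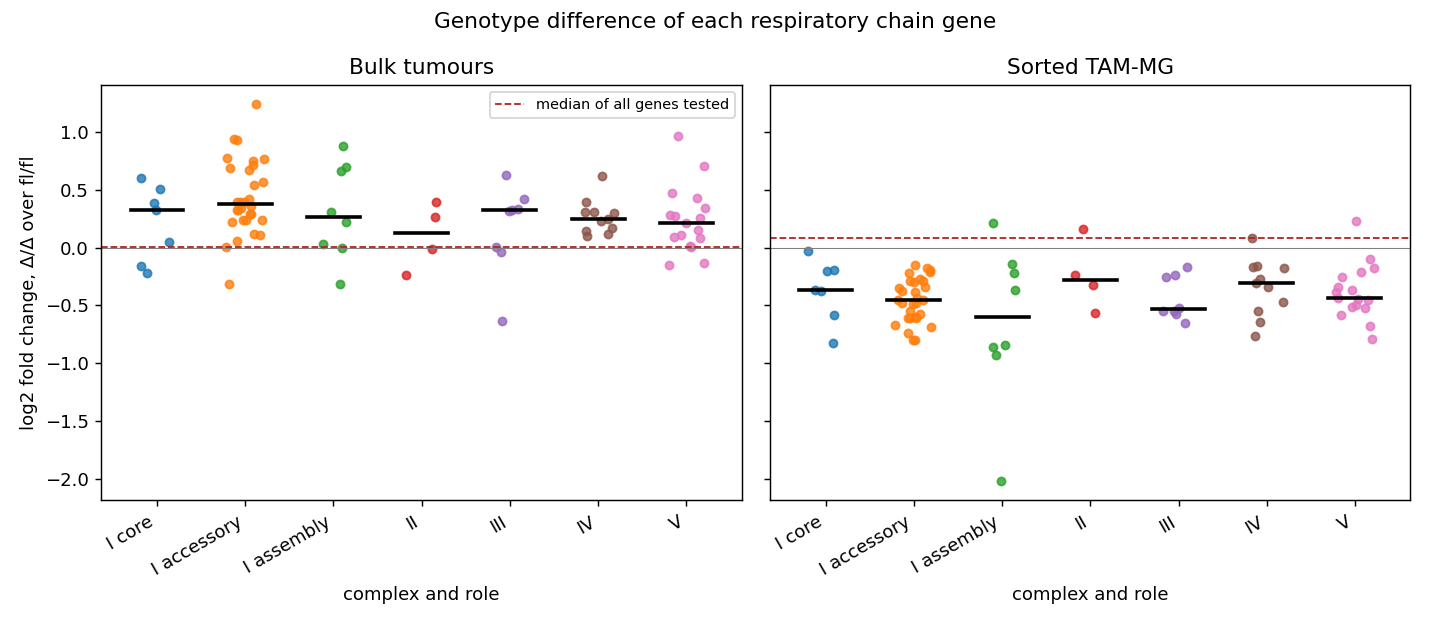
Log2 fold change of each tested gene, Cx3cr1-Rheb1 Δ/Δ over Rheb1 fl/fl, in bulk tumours (left) and TAM-MG (right), by complex and role, isoforms left out. Points are genes, black bars the median of each group and the dashed line the median of all genes tested (0.0034 and 0.08). All group medians lie above 0 in bulk tumours and below 0 in TAM-MG, and no single gene passed the threshold.

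The lower values ran through all 5 complexes in TAM-MG. All 30 genes placed with the accessory subunits of complex I, which surround and stabilise its catalytic core, had negative fold changes (median -0.45, 12 without overlap of the genotypes). The 7 core subunits, which hold the redox centres, were all negative (median -0.37, 2 without overlap), as were all 8 subunits of complex III (median -0.53, 5 without overlap). Of complex II 3 of 4 were negative (median -0.28), of complex IV 10 of 11 (median -0.30) and of complex V 16 of 17 (median -0.43). Of the 8 assembly factors of complex I, which help to build it without being part of it, 7 were negative (median -0.60, 4 without overlap). The map of each subunit in each library shows the values of the single mice.

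**Figure D2:**
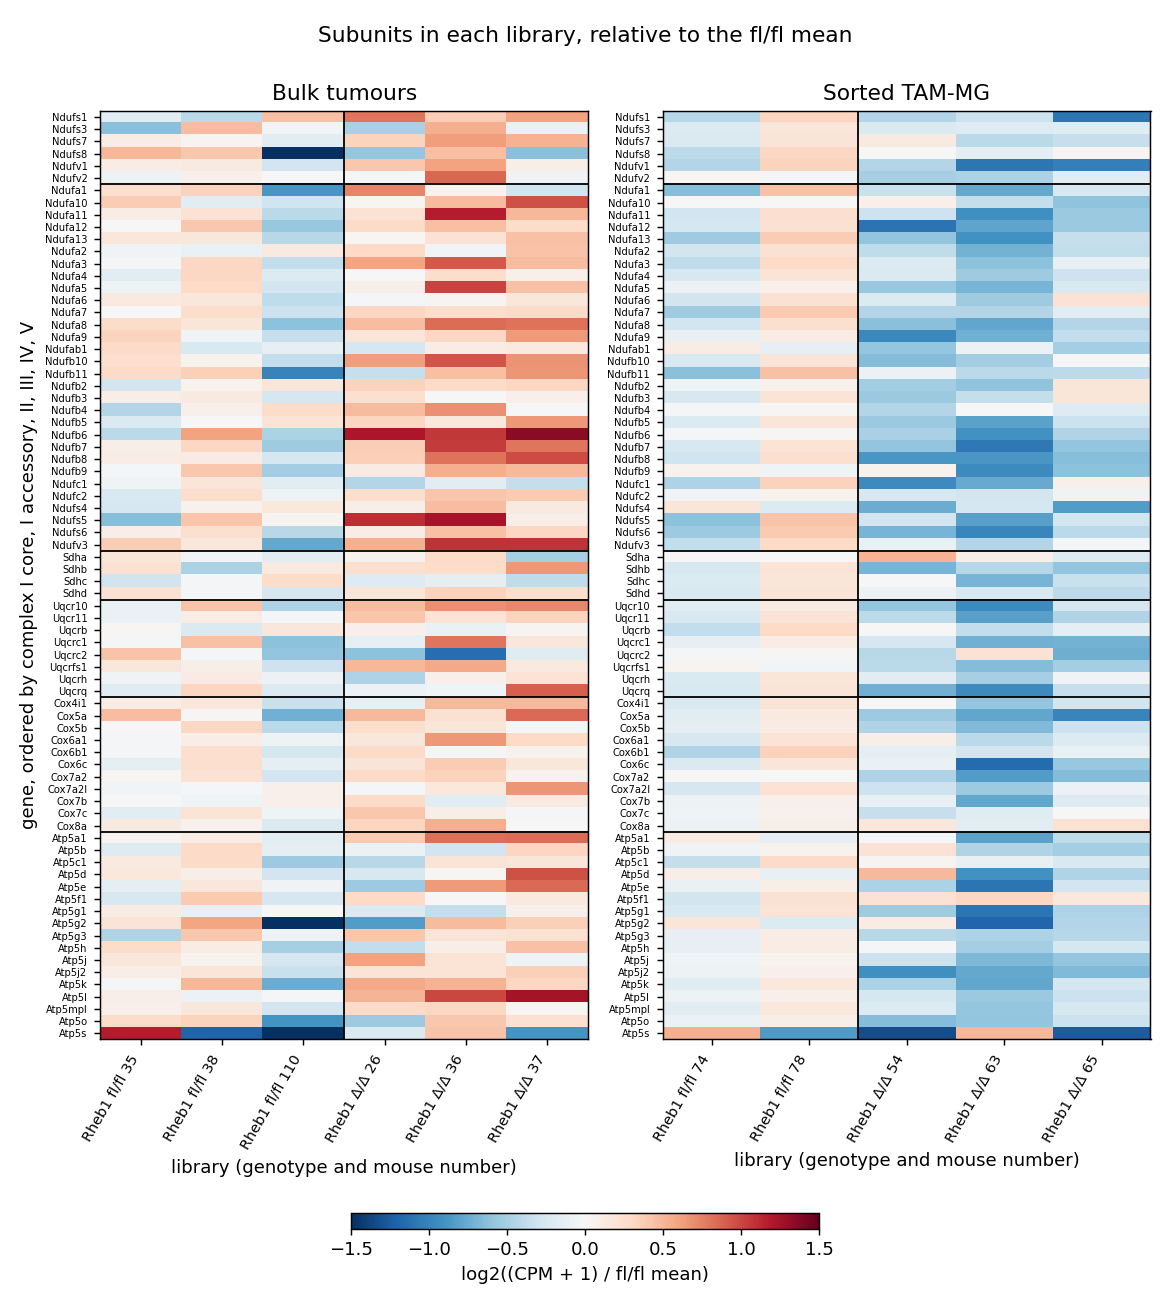
The 76 subunits named in the map (rows, grouped by complex with black lines, isoforms and assembly factors left out) in each library (columns), as log2 of CPM plus 1 over the fl/fl mean, with colours from -1.5 (blue) to 1.5 (red). In TAM-MG the 3 Δ/Δ columns are mostly blue. In bulk tumours the Δ/Δ columns are mostly red, and fl/fl mouse 110 is bluer than the other fl/fl mice.

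Ndufb8, an accessory subunit in the membrane arm of complex I (chromosome 19, 44548572 to 44555440, GRCm38), was measured at 210 and 307 CPM in fl/fl and at 140.2, 141 and 166 CPM in Δ/Δ TAM-MG. The log2 fold change was -0.80 (standard error [SE] 0.27, adjusted p = 0.552). Ndufa12, another accessory subunit, was at 211 and 296 CPM in fl/fl and at 118, 146 and 172 CPM in Δ/Δ TAM-MG, with a fold change of -0.80 (standard error 0.29, adjusted p = 0.552). For both genes the lowest fl/fl library lay well above the highest Δ/Δ library. Among the core subunits, Ndufv1, which carries the site where NADH is oxidised, had the lowest value, -0.83 (standard error 0.37, adjusted p = 0.552), and its libraries touched but did not overlap, with 109.22 CPM in fl/fl mouse 74 and 108.99 CPM in Δ/Δ mouse 54. Ndufs1, the largest iron-sulphur subunit, was at -0.58, and the genotypes overlapped. The assembly factors Ndufaf6 and Ndufaf8 were at -0.93 and -0.84 without overlap, and Ndufaf7, a methyltransferase acting on complex I, was at 0.21.

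Complex II also belongs to the citric acid cycle. Its iron-sulphur subunit Sdhb was measured at 585 and 796 CPM in fl/fl and at 426, 457 and 512 CPM in Δ/Δ TAM-MG, a fold change on the log2 scale of -0.57 (standard error 0.26, adjusted p = 0.552). No Δ/Δ library reached an fl/fl library. Sdha, the flavoprotein that oxidises succinate, did not follow it. It was at 262 and 263 CPM in fl/fl and at 229, 276 and 375 CPM in Δ/Δ TAM-MG, with a fold change of 0.16 and overlapping genotypes. The membrane anchors Sdhc and Sdhd were at -0.32 and -0.23 and overlapped too.

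In complex III the Rieske iron-sulphur protein Uqcrfs1 was at 123 and 129 CPM in fl/fl and at 79.7, 88.1 and 95.3 CPM in Δ/Δ TAM-MG, with a log2 fold change of -0.52 (SE 0.25, adjusted p = 0.575). The large matrix subunit Uqcrc1 was at 940.1 and 1109.8 CPM against 620, 626 and 860 CPM (-0.55), also without overlap, and its partner Uqcrc2 at -0.26 with overlap. Uqcrq, a small subunit of this complex, had the smallest p of the 8, with a fold change of -0.65 (adjusted p = 0.552).

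In complex IV, Cox5a was at 152 and 189 CPM in fl/fl and at 85.3, 99.0 and 117 CPM in Δ/Δ TAM-MG, a fold change on the log2 scale of -0.77 (standard error 0.27, adjusted p = 0.552). Cox7a2, the widely expressed form of a small subunit that has a muscle isoform, was at 152 and 153 CPM against 85.0, 97.2 and 110.2 CPM (-0.65). Cox5b was at -0.47 without overlap and Cox4i1, the first nuclear subunit to join the core, at -0.27 with overlap. Cox8a, the smallest subunit, was the only one of the 11 on the higher side (0.09).

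Atp5j2, a small subunit of the membrane part of ATP synthase (chromosome 5, 145183698 to 145192062, GRCm38), had the smallest p of all 91 genes. It was at 140.1 and 156 CPM in fl/fl and at 77.9, 86.2 and 93.2 CPM in Δ/Δ TAM-MG, with a log2 fold change of -0.79 (SE 0.25, adjusted p = 0.508). Atp5g1, one of 3 genes for the rotating c subunit, was at -0.67 without overlap, and Atp5o, the stalk subunit that confers oligomycin sensitivity, at -0.51 without overlap. Atp5a1 and Atp5b of the catalytic head and Atp5c1 were at -0.37, -0.21 and -0.10, all with overlapping genotypes. Atp5f1, a stator subunit, was at 0.23.

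The size of this shift moved with scaling, transcript length and single libraries. The median was -0.80 with a scaling to an equal mean of log CPM, which moved the median of all genes to -0.34, and -0.11 once transcript length and GC content were corrected for, with all genes at 0.10. Short genes lay lower in Δ/Δ TAM-MG in general. Protein-coding genes with transcripts under 600 bases had a median of -0.30 and those of 600 to 1000 bases -0.22, where the respiratory chain genes had -0.36 and -0.45. From 1000 to 2000 bases the medians were -0.10 for all and -0.37 for the chain, and from 2000 bases 0.20 and -0.37. Without fl/fl mouse 78 the median of the 91 genes was -0.25, with 0 genes at an unadjusted p under 0.05, and without Δ/Δ mouse 63 it was -0.31, with 0 lower and 2 higher by that measure. The summed markers of proliferating cells were 581 to 937 CPM in fl/fl and 206 to 542 CPM in Δ/Δ TAM-MG, without overlap, with all 5 markers on the lower side and 0 of the 5 at 0 throughout. The summed markers of monocytes and bone marrow-derived macrophages, 8 genes, were 222 to 290 and 134 to 169 CPM, and those of microglia, 11 genes, 23800 to 31500 and 29500 to 44900 CPM. Endothelial markers summed to 59.9 to 77 and 104 to 121 CPM, but of the 5 tested 1 lay above and 2 below without overlap. Cldn5 was at 13.15 and 14.87 against 33.45 to 83.43 CPM. Kdr, at 13.59 and 22.43 against 1.226 to 12.14 CPM, and Cdh5 lay below, and Tek was at 0 in both fl/fl libraries. Oligodendrocyte markers summed to 301 to 334 and 227 to 286 CPM, with 1 of 7 above and 1 below without overlap. In fl/fl libraries 15012 to 15453 genes had a count and in Δ/Δ libraries 16383 to 16961. The part of these differences in the result was not tested.

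Taken as shares of the whole library, the 93 genes held 1.44 to 1.59% of all counts in fl/fl and 1.03 to 1.28% in Δ/Δ TAM-MG, without overlap. In bulk tumours they held 1.496 to 1.95% in fl/fl and 1.84 to 2.08% in Δ/Δ mice, with overlap. In TPM, which is scaled by transcript length and summed over the 86 genes present in both TPM tables, the genes came to 32540 ± 2543 (SD, n = 2) in fl/fl and 26200 ± 2314 (SD, n = 3) in Δ/Δ TAM-MG. In bulk tumours they came to 41300.0 ± 2511 (SD, n = 3) and 43220.0 ± 3170 (SD, n = 3). Only the TAM-MG groups were apart by more than their SD. In TAM-MG complex III held 0.228 to 0.242% of counts in fl/fl and 0.150 to 0.187% in Δ/Δ mice, and complex V 0.328 to 0.341% and 0.232 to 0.316%.

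**Figure D3:**
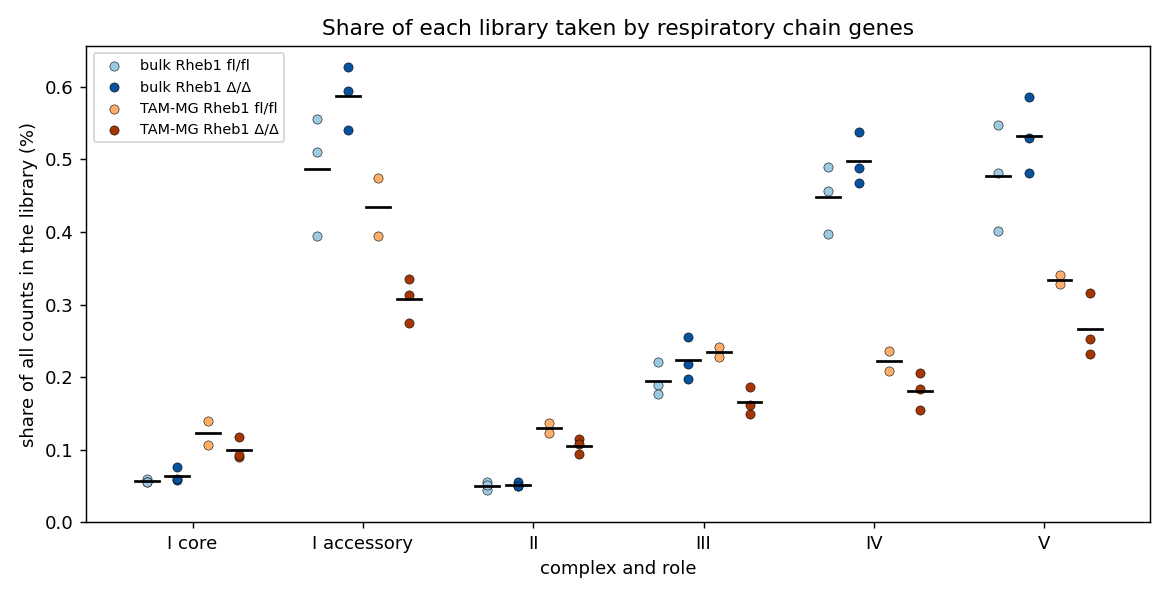
Share of all counts in a library (percent, from 0) held by the genes of each complex, for the 4 groups. Points are libraries and black bars group means. In TAM-MG the Δ/Δ points lie below the fl/fl points for the complex I accessory subunits and for complexes II, III, IV and V, and overlap for the complex I core.

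The other genes around the chain, taken from lists chosen with earlier results known, did not all share its position in TAM-MG. The 77 tested genes of the mitochondrial ribosome had a median of -0.40, with 30 below and 4 above without overlap. The 86 genes of the cytosolic ribosome had a median of -0.21, with 33 below and 1 above. The 13 enzymes of the citric acid cycle had a median of -0.33, with 4 below and 2 above. The 39 tested assembly factors and cytochromes outside the rule had a median of -0.22 and the 10 genes of uncoupling, inhibition and defence against reactive oxygen -0.32. The 12 subunits encoded by the mitochondrial genome had a median of 0.12, with 0 separated in either direction, and 17 tested regulators of mitochondrial biogenesis 0.38, with 2 above. Over all genes 11.5% lay below and 14.6% above without overlap. The quasi-likelihood test of edgeR called 0 genes of these lists.

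The same comparison in bulk tumours asked whether the chain differed in the tumour as a whole. Here it lay on the other side: 77 of 90 tested genes had a positive and 13 a negative log2 fold change, with a median of 0.30, beside 0.0034 over all 17028 genes tested. The quasi-likelihood test of edgeR called 0 of the 90, and 0% of all genes in both directions. Unadjusted p-values under 0.05 were found for 7 genes on the higher side and 0 on the lower, where 3.82% and 5.19% of all genes were. The likelihood ratio test and DESeq2 called 0 of these genes, beside 2.25% and 5.01% of all genes, and limma on log2(TPM + 1) called 0, beside 0.0079%. For 16 genes every Δ/Δ tumour lay above every fl/fl tumour and for 1, the complex I subunit Ndufc1, below, beside 7.82% and 9.23% of all genes. The TPM values did not show this. On the TPM scale 6 of 86 genes lay above and 1 below without overlap, beside 6.26% and 10.1% of all genes, and the median log2 fold change by limma was 0.09, with all genes at -0.08.

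In whole tumours, less RNA of a gene per cell and fewer cells that express it cannot be told apart. Beside the values of the chain, the summed microglial markers were 236 to 458 CPM in fl/fl and 31.8 to 142 CPM in Δ/Δ tumours, the 12 markers shared by microglia and macrophages 2240 to 3970 and 723 to 1480 CPM, and the neuronal markers 2060 to 2960 and 1630 to 4000 CPM, with 0 markers of the 3 lists at 0 throughout a group. Markers of monocytes and bone marrow-derived macrophages were 122 to 379 and 40 to 92.9 CPM. Of these 8, 7 were lower, 4 of them without overlap, and Ms4a4c was at 0 in all Δ/Δ tumours. Markers of T cells were 26.1 to 112 and 8.54 to 20.2 CPM, with 6 of 6 tested lower and 1 without overlap. These RNA sums ran the other way from the study's cell measurements. By flow cytometry it found more bone marrow-derived TAM and more CD4 and CD8 T cells in Δ/Δ tumours, the T cells also by staining and CIBERSORT. The summed skeletal muscle markers lay above the fl/fl range in Δ/Δ tumours, at 1.54 to 8.52 and 19.2 to 25.7 CPM, with Ckm and Myh4 at 0 in all 6. Of the 3 tested, 0 separated the genotypes. The largest part was Tnnt3 in Δ/Δ mice 26 (22.42 CPM) and 37 (13.23 CPM) and Acta1 in mouse 36 (12.42 CPM). The part of all these markers in the bulk result was not tested. Fl/fl mouse 110 had the lowest share of counts in the chain (1.496%). Without it the median of the members was 0.17 and 1 gene was higher at an unadjusted p under 0.05, and without Δ/Δ mouse 36 it was 0.25, with 1 gene higher and 1 lower by that measure. Without fl/fl mouse 35 or 38 or Δ/Δ mouse 37, 3, 4 and 4 genes were.

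The accessory subunits of complex I stood highest among the bulk groups, with 29 of 30 positive, a median of 0.38 and 8 above without overlap. Ndufb6, in the membrane arm, was measured at 18.7, 19.6 and 40.6 CPM in fl/fl and at 56.1, 62.0 and 68.9 CPM in Δ/Δ tumours, with a log2 fold change of 1.25 (SE 0.45, adjusted p = 0.418). Ndufv3, a small subunit beside the NADH site, was at 55.2, 106 and 122 CPM against 138, 201 and 201 CPM (0.93, adjusted p = 0.464). In counts no fl/fl tumour reached a Δ/Δ tumour for either gene. In TPM Ndufb6 stayed apart, but Ndufv3 was at 526 TPM in fl/fl mouse 35 and at 455 to 515 TPM in Δ/Δ tumours. Ndufs7, Sdhb, Uqcr10 and Cox6a1, given below as without overlap or separated in counts, overlapped in TPM too. Of the core subunits 5 of 7 were positive (median 0.33). Ndufs7, with the last iron-sulphur cluster before quinone, was at 0.50 without overlap, Ndufs1 at 0.61, Ndufv1 at 0.38 and Ndufs8 at -0.16, the last 3 with overlap. Among 8 assembly factors 7 were positive, from Ndufaf1 at 0.88 and Ndufaf8 at 0.31 to Ndufaf5 at -0.31, with 0 separated.

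Complex II was split in bulk tumours, with Sdhb at 0.40 without overlap, Sdhd at 0.27, Sdha at -0.01 and Sdhc at -0.24. In complex III the small subunit Uqcr10 was at 171, 222 and 318 CPM in fl/fl and at 327, 382 and 392 CPM in Δ/Δ tumours (0.63, adjusted p = 0.585), without overlap. Uqcrfs1 was at 0.42, Uqcrc1 at 0.34, the hinge protein Uqcrh at -0.03 and Uqcrc2, at only 7.67 to 24.7 CPM, at -0.64. All 11 subunits of complex IV were positive, within a narrow range of 0.10 to 0.62 and with 1 gene, Cox6a1 (0.39), separated, though by limma on log2(TPM + 1) Cox6a1 and Cox5b were at -0.30 and -0.0757. Cox4i1 was at 0.31, Cox8a at 0.30, Cox5b at 0.14, and Cox5a at 0.62 on 3.25 to 11.6 CPM only.

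Complex V was positive for 15 of 17 genes (median 0.22). Atp5a1, the α subunit of the catalytic head, was at 429, 499 and 520.4 CPM in fl/fl and at 634, 859 and 867 CPM in Δ/Δ tumours, with a log2 fold change of 0.70 (SE 0.28, adjusted p = 0.470). Its partner in the head, Atp5b, was at 852, 889 and 1190 CPM against 797, 918 and 1219 CPM, with a fold change of 0.0021. The α subunit separated by genotype and the β subunit did not. Atp5c1 and Atp5o were at 0.02 and 0.08, Atp5g1 at -0.15 and Atp5s, a factor coupled to the synthase, at -0.13. Atp5l, a membrane subunit, was at 38.5, 40.6 and 44.1 CPM against 58.8, 83.1 and 98.8 CPM (0.97, adjusted p = 0.437).

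Around the chain in bulk tumours, 11 tested subunits of the mitochondrial genome were all positive (median 0.51), with 1 separated, and the medians were 0.01 for 75 genes of the mitochondrial ribosome, 0.11 for 86 of the cytosolic ribosome, 0.06 for 13 of the citric acid cycle, 0.07 for 35 assembly factors and cytochromes outside the rule, -0.07 for 19 regulators of biogenesis and 0.19 for 10 genes of uncoupling and defence. The positive side of the nuclear-encoded chain was shared by the mitochondrially encoded subunits here, whose median in TAM-MG was 0.12.

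Both experiments together ask whether the genotype effect differed between sorted microglia and the whole tumour. This difference, TAM-MG minus bulk, was negative for 82 of 92 tested genes, with a median of -0.62 beside 0.30 over all 21342 genes. The median moved with the processing. It was -0.38 beside 0.27 over all genes with the correction for length and GC content, and -1.10 beside -0.14 with an equal mean of log CPM. No gene of the chain was called in the interaction test of edgeR, where 0.197% of all genes were called higher and 0.0281% lower. Unadjusted p-values under 0.05 were found for 17 genes on the lower side and for 1, the isoform Cox4i2, on the higher, beside 2.93% and 9.3% of all genes. Cox4i2 had 0 counts in both fl/fl TAM-MG libraries and was too low to be tested in bulk tumours alone. Its fold change has no bound and its p is no support. The number lower was 7 with the correction for length and GC content, 24 with RLE size factors and 51 with an equal mean of log CPM. The likelihood ratio test called 0 genes of the chain (3.91% of all genes in either direction), and DESeq2 called 6, all lower (6.78%). The smallest p belonged to Ndufb8, with a difference of -1.51 (standard error 0.44, adjusted p = 0.249), followed by Ndufb6 with -1.82 (0.55, adjusted p = 0.270). The number of genes lower at an unadjusted p under 0.05 was 3 without fl/fl TAM-MG mouse 78, 5 without Δ/Δ TAM-MG mouse 63, 7 without fl/fl bulk mouse 110, 10 without Δ/Δ bulk mouse 36 and 11 without Δ/Δ TAM-MG mouse 65.

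By complex, the median difference was -0.81 for the accessory subunits of complex I (30 of 30 negative), -0.66 for its core, -1.01 for its assembly factors, -0.26 for complex II, -0.84 for complex III, -0.55 for complex IV and -0.52 for complex V. Among the core genes, Ndufv1 (-1.19, adjusted p = 0.388), Ndufs1 (-1.16), Cox5a (-1.35, adjusted p = 0.391), Atp5a1 (-1.03, adjusted p = 0.352), Sdhb (-0.94), Uqcrfs1 (-0.91) and Uqcrc1 (-0.85) were the most negative. Cox5b (-0.58), Atp5o (-0.56), Cox4i1 (-0.55), Sdhd (-0.47), Atp5b (-0.17), Atp5c1 (-0.08) and Sdhc (-0.05) were nearer to 0, and Sdha (0.21) and Uqcrc2 (0.42) were positive. Of the remaining genes with the smallest p of their group, Uqcr10 was at -1.17, Atp5j2 at -1.01, Uqcr11 at -0.83, Cox7a2 at -0.84, Ndufaf6 at -1.55, Ndufaf8 at -1.12, Ndufs8 at 0.17 and Atp5f1 at 0.11.

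For 9 genes the libraries did not overlap in either experiment and lay in opposite directions, above in Δ/Δ bulk tumours and below in Δ/Δ TAM-MG. They were the complex I subunits Ndufa8, Ndufb6, Ndufb7 and Ndufb8, Sdhb of complex II, Uqcr10 and Uqcr11 of complex III and Atp5j2 and Atp5l of complex V. They made up 10.1% of the 89 genes of the chain tested in both experiments, beside 0.861% of all 12667 genes tested in both. The reverse was seen for 0 genes of the chain, beside 219 of the 12667 genes. Ndufb7, an accessory subunit on the side of the intermembrane space, was at 39.5, 61.4 and 71.8 CPM in fl/fl and 74.6, 101.5 and 120.1 CPM in Δ/Δ bulk tumours, and at 191 and 259 CPM against 106, 149 and 149 CPM in TAM-MG. Ndufb8, whose TAM-MG values are given above, was at 90.4, 117 and 117 CPM against 139, 191 and 214 CPM in bulk tumours. The margin was at times small, as for Sdhb, with 156.9 CPM in fl/fl mouse 35 and 157.6 CPM in Δ/Δ mouse 26. On the TPM scale all 9 stayed apart in TAM-MG, but only Ndufa8, Ndufb6 and Ndufb7 did so in bulk tumours.

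**Figure D4:**
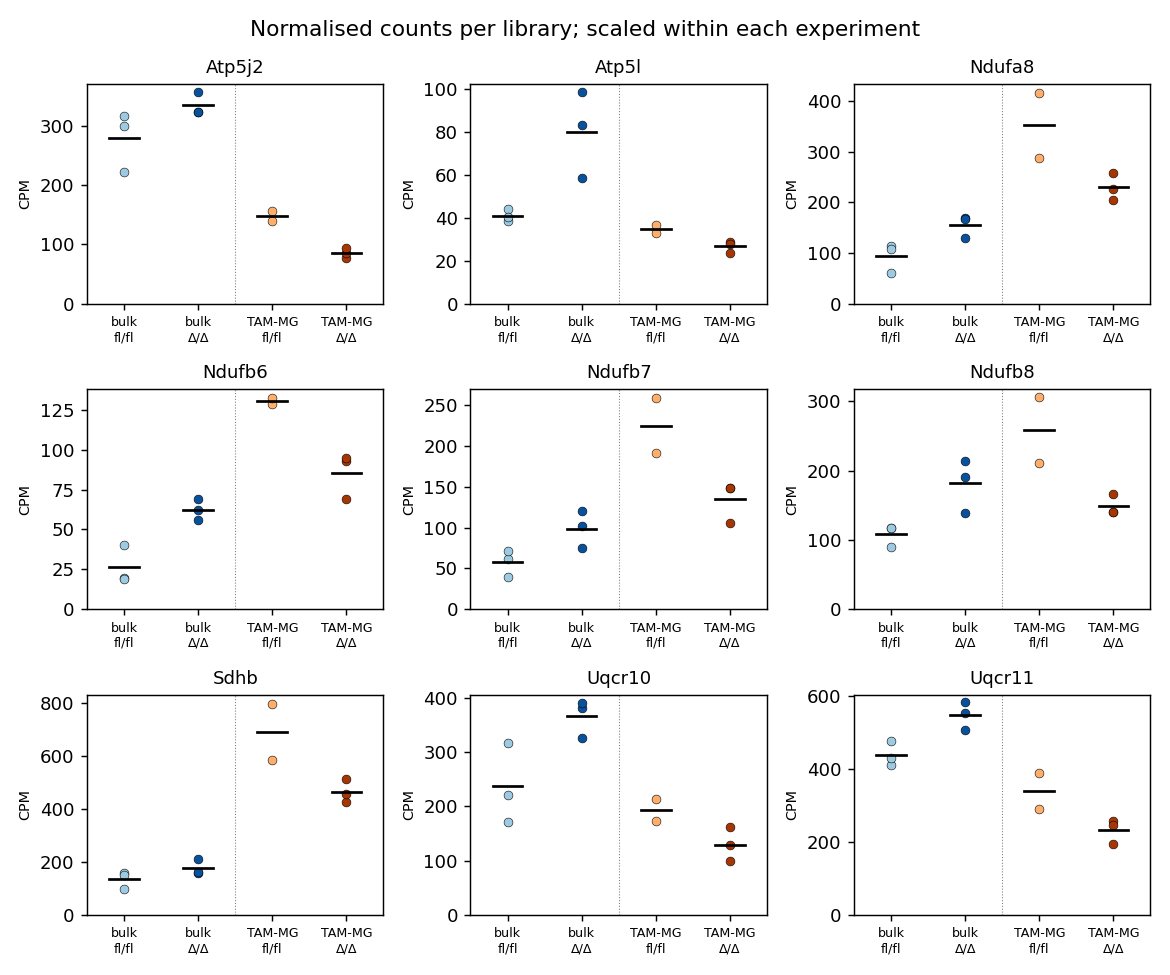
CPM per library, from 0, of the 9 genes whose genotypes did not overlap in either experiment and lay in opposite directions, with bulk tumours left and TAM-MG right of the dotted line and black bars at the group means. CPM were scaled within each experiment, so levels are compared within each side only. All Δ/Δ points lie above the fl/fl points on the left and below them on the right.

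The promoters of these genes are shown because respiratory chain genes are known to share sites for the factors NRF1, GABP, YY1 and ERRα. RefSeq windows from 250 bases before to 50 after the start were at hand for 76 of the 93 genes, in 81 windows, and were searched on both strands for 4 strings, namely GCGCATGC for NRF1, CCGGAAGT for GABP, AAGATGGCG for YY1 and TCAAGGTCA for ERRα. The NRF1 string was in 15.8% of the 76 genes and in 3.9% of 17492 protein-coding genes with a window, the GABP string in 6.6% and 5.7%, the YY1 string in 10.5% and 2.1% and the ERRα string in 2.6% and 0.4%. Such a match is a description of the letters and no evidence of binding. In Ndufb6, Ndufb7, Ndufb8 and Uqcr10 none of the 4 strings was in the window, Atp5j2 held the YY1 string 23 bases after its start, and 4 of the 9 genes held a string fully before the start. Their 100-base stretches are printed 5′ to 3′ on the strand of the gene (RefSeq, GRCm38.p6), with the string in capitals.
Atp5l, chr9:44920893-44920992, minus strand, 250 to 151 bases before the start, NRF1 string: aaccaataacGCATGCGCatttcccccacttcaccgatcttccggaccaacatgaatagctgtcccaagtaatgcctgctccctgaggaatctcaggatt
Ndufa8, chr2:36049339-36049438, minus strand, the last 100 bases before the start, NRF1 string: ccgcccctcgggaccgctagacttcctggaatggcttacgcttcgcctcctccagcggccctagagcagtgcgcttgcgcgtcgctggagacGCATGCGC
Sdhb, chr4:140961171-140961270, plus strand, the last 100 bases before the start, NRF1 string: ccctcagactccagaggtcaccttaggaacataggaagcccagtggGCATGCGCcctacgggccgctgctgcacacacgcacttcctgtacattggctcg
Uqcr11, chr10:80406822-80406921, minus strand, the last 100 bases before the start, GABP string: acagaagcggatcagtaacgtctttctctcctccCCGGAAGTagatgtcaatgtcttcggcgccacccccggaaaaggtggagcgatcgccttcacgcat
In the 3 NRF1 stretches the capitals read GCATGCGC, the same string on the other strand, and they lie 240, 8 and 54 bases before the start. Uqcr11 held a second string, for NRF1, that runs across its start and is not capitalised here.

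Levels were then compared between TAM-MG and bulk tumours, over both genotypes with equal weight. The 2 kinds of sample differ in cell content, RNA source and experiment at once, and these cannot be told apart. Of 92 tested genes 26 were called higher and 27 lower in TAM-MG by edgeR's quasi-likelihood test, beside 20.5% and 32.4% of all 21342 genes, and the median log2 fold change was -0.22 beside -0.89 over all genes. Of the mitochondrial ribosome 40 of 77 genes were called higher and 3 lower, and of the cytosolic ribosome 13 and 48 of 88. Without overlap of the libraries were 22 higher and 18 lower, beside 14.6% and 20.2% of all genes. The split depended on scaling. An equal mean of log CPM gave 44 higher and 7 lower, beside 29.2% and 23.8% of all genes. Library size only gave 18 and 42, beside 15.4% and 40.1%. The correction for length and GC content gave 14 and 47, beside 20.6% and 31.7%. With fl/fl libraries alone the numbers were 22 and 11, beside 12.6% and 22.2%.

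Of the complex I core 6 of 7 were called higher and 0 lower (median 1.24), and of complex II 3 of 4 higher (median 1.69). Over all genes 20.5% were called higher and 32.4% lower. Uqcrc1 had a log2 fold change of 3.65 (standard error 0.27), with 48.0 to 131 CPM in bulk tumours and 787 to 1377 CPM in TAM-MG on the joint scale. Sdhb was at 2.46, Ndufs3, a core subunit of complex I, at 2.89, Sdhd at 1.80, Sdha at 1.57, Atp5o at 1.27, Atp5c1 at 1.04 and Cox4i1 at 0.68, all called. Ndufv1 was called at 0.85, but in TPM it lay on the other side, with a log2 ratio of -1.66 (means of 301 TPM in bulk tumours and 94.4 TPM in TAM-MG), the only 1 of the 25 genes called higher with a TPM value in both whose direction turned. Ndufa9 and Ndufa8, accessory subunits, were called at 2.11 and 1.81, the assembly factors Ndufaf6 and Ndufaf7 at 3.22 and 2.80, and Cox7a2l, a factor that joins complexes into supercomplexes, at 1.20. After the correction for length and GC content Atp5o (-0.10), Atp5c1 (-0.35), Cox4i1 (-0.32) and Cox7a2l (-0.28) lay on the lower side instead. Uqcrfs1 (0.05), Ndufs1 (0.30), Atp5a1 (0.39), Atp5b (-0.07), Sdhc (-0.22) and the assembly factor Ndufaf2 (-0.97) were not called.

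In complex IV 7 of 11 were called lower and 3 higher, beside 32.4% and 20.5% of all genes. Those lower included Cox7b (-1.964), Cox8a (-1.77) and Cox5b (-0.84). Cox8a was at 576 to 987 CPM in bulk tumours and 192 to 255 CPM in TAM-MG, without overlap. In complex V 6 of 17 were called lower, near the 32.4% of all genes, and 2 were called higher. Among those lower were Atp5g3, another gene of the c subunit, at -2.45 and Atp5mpl, a small membrane subunit, at -2.02. In complex III, Uqcrh was at -1.02 and Uqcrb, a quinone-binding subunit, at -0.83, and in complex I the accessory subunits Ndufa3 and Ndufa6 at -1.41 and -1.26 and the assembly factor Ndufaf4 at -1.56, all called. The levels also moved with transcript length. Below 600 bases 1 of 21 genes lay higher (median -1.02), from 600 to 1000 bases 13 of 32 (-0.43), from 1000 to 2000 bases 23 of 30 (0.93) and from 2000 bases 6 of 9 (0.33). Over all protein-coding genes the medians in these ranges were -1.19, 0.13, 0.34 and -0.87. Across the 92 genes, which share the 11 libraries and are not replicates, the Spearman correlation of fold change with length was 0.467, and over all protein-coding genes -0.226.

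**Figure D5:**
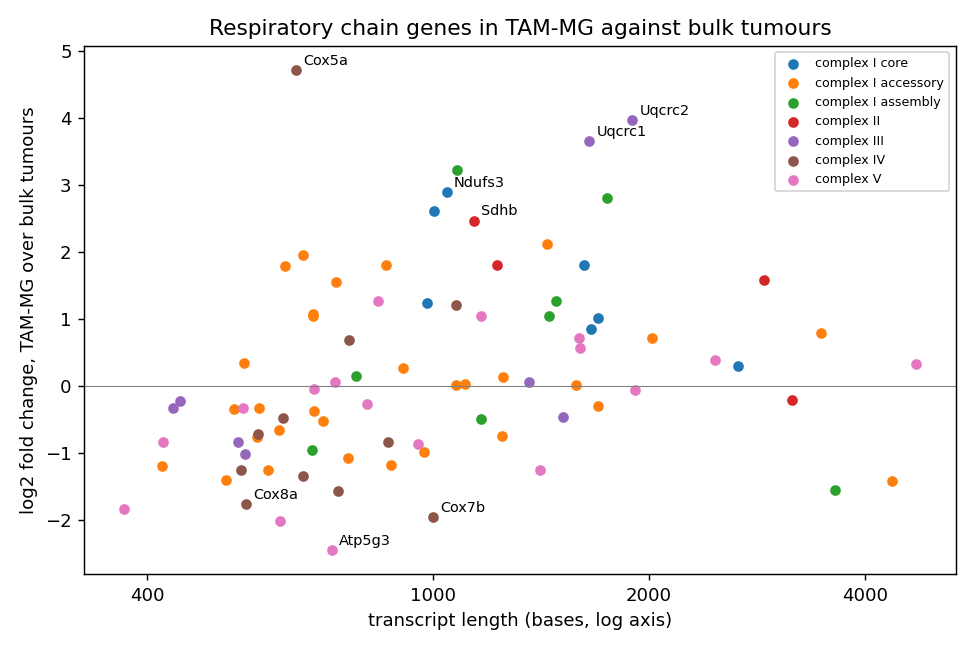
Log2 fold change of TAM-MG over bulk tumours (y) against transcript length in bases (x, log axis) for the tested genes without isoforms, coloured by complex. Genes under 600 bases lie below 0 with 1 exception, and the highest values belong to Cox5a (4.71), Uqcrc2 (3.96) and Uqcrc1 (3.65).

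Counts and TPM did not give the same level for every gene. Of 86 genes with both, 69 had the same direction, 24 of 25 called higher were higher in TPM, and 23 of 26 called lower were lower. Uqcrc1 was at a mean of 45.4 TPM in bulk tumours and 345 TPM in TAM-MG, a log2 ratio of 2.90. For Uqcrc2 the ratio was 0.95 in TPM (50.5 and 98.5 TPM) against 3.96 in counts, for Ndufs3 0.68 against 2.89, and for Atp5b -2.19 (2418 and 531 TPM) against -0.07. Sdhc (1.51 in TPM and -0.22 in counts) and Ndufc1 (1.06 and -0.75) lay on opposite sides, as Ndufv1 did. So did other genes, among them Ndufs5 (-0.985 and 1.047), Ndufb4 (0.317 and -0.983) and Ndufa4 (0.154 and -0.661). Cox5a had the largest value in counts, 4.71 (2.68 to 9.66 CPM in bulk tumours and 107 to 235 CPM in TAM-MG), and was not in the bulk TPM table. The source of these gaps was not tested. The levels of all genes that differed in direction are uncertain, as are those of Uqcrc2, Ndufs3 and Atp5b. So is that of Cox5a, which had no TPM value to set beside it. On the TPM scale, per transcript length, Cox8a stood highest in bulk tumours (3108 to 5152 TPM, mean 4151). In TAM-MG Uqcr11 stood highest (1004 to 1682 TPM, mean 1289), just above Cox4i1 (mean 1272). In fl/fl TAM-MG their means were 1531 and 1342 TPM, and in Δ/Δ TAM-MG Cox4i1 stood above Uqcr11, at 1225 and 1128 TPM. The lowest TPM in bulk tumours was that of Ndufa4l2 (mean 1.18 TPM), and in TAM-MG Cox7b2 and Cox8c were listed at 0.

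The isoforms had few counts, which varied widely between mice. Cox8c, a testis form, had 0 counts in all 11 libraries. Cox4i2, the lung form induced by low oxygen, had 0, 2 and 84 counts in fl/fl and 1, 0 and 0 in Δ/Δ bulk tumours, and 0 and 0 in fl/fl and 25, 41 and 0 in Δ/Δ TAM-MG. Against a floor of 3 counts over the fl/fl group this is at least 15.4-fold higher in Δ/Δ TAM-MG, carried by 2 of 3 mice, and at least 9.56-fold without mouse 63. Cox8b, a heart and muscle form, had 0, 241 and 3 against 3, 399 and 0 counts in bulk tumours, and 0 and 0 against 18, 0 and 85 in TAM-MG, at least 24.4-fold higher, and at least 6.88-fold without mouse 65. Cox7a1, another muscle form, had 0 and 11 counts in fl/fl and 49, 19 and 50 in Δ/Δ TAM-MG, and Ndufa4l2, a hypoxia-induced paralogue of Ndufa4, 1 and 1 against 34, 2 and 70. In CPM these were the 2 genes of the chain whose Δ/Δ libraries all lay above the fl/fl libraries in TAM-MG, and in TPM only Cox7a1 of them did. In bulk tumours Cox7a1 had 6, 84 and 187 against 0, 3 and 151 counts and Ndufa4l2 1, 16 and 0 against 2, 28 and 26. Cox7b2, a testis form, had 30, 154 and 0 against 114, 0 and 1 counts in bulk tumours and 0 in all 5 TAM-MG libraries. Cox6a2, the muscle form of Cox6a, was the isoform with the most counts in TAM-MG, at 12.004 and 27.6 CPM in fl/fl and 1.61, 2.63 and 9.76 CPM in Δ/Δ mice, with a log2 fold change of -2.08 (SE 1.07, adjusted p = 0.623) without overlap. In bulk tumours it was at 0.52 with overlap. Cox6b2, a testis form, was at -1.80 in bulk tumours (adjusted p = 0.614), with 10.6, 22.2 and 31.1 CPM against 1.83, 4.03 and 12.5 CPM, and at -0.68 in TAM-MG, where 2 Δ/Δ mice had 0 counts.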

How the data were processed

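RNA-seq of 6 bulk GL261 tumours and 5 TAM-MG samples was used. The authors deposited raw counts per gene from STAR and TPM values from Salmon, on Ensembl GRCm38, from SmartSeq2 and Nextera XT libraries. The deposited TAM-MG TPM values, recorded as another unit because an unnamed total line doubles their sum, were used without that line, and the bulk TPM table holds 86 of the 93 genes. Every value column was mapped to a sample. Names, lengths and coordinates came from GENCODE M21 (50462 of 50686 identifiers). Members and lists were chosen with earlier results of these data known. Counts were filtered by filterByExpr (minimum count 10, total 15), scaled by TMM and tested with the quasi-likelihood test of edgeR 4.0.16 (R 4.3.3), with Benjamini-Hochberg adjustment over all genes. Standard errors were derived from the F statistic. Genes were called at an adjusted p under 0.05 and 1.5-fold. Level and interaction were fitted over all 11 libraries. The steps were tested on simulated data, with changes set in genes drawn from all tested genes. Of 2-fold changes 0% were called in either genotype comparison. Of 4-fold changes 16% were called in bulk tumours and 2% in TAM-MG. In the interaction 0% of 8-fold changes were called. A lack of calls therefore does not exclude changes of such sizes. Alternatives were the likelihood ratio test, DESeq2 1.42.0, limma 3.58.1 on log2(TPM + 1) and log2(TPM + 0.1), with or without a minimum of 1 TPM in 2 libraries, other scalings and filters, length and GC offsets, and each library left out. Named genes were the core members, of which 1 is not reported here, the isoforms, for each comparison and role up to 2 genes with the smallest p per direction, and the genes of highest and lowest TPM. Genes separated in opposite directions and those whose counts and TPM differed were chosen after their values were seen. Depth was 14940787 to 29947977 counts per library. Bounds from a floor of 3 counts cover counting error only.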

Additional observations from a re-analysis of the deposited data

Results flagged for a closer look

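The genotype effect lay in opposite directions in the 2 experiments for 9 genes, each with every Δ/Δ bulk tumour above every fl/fl tumour and every Δ/Δ TAM-MG library below both fl/fl libraries. The difference, TAM-MG minus bulk tumours on the log2 scale, was -1.82 for Ndufb6, -1.51 for Ndufb8, -1.49 for Ndufb7, -1.32 for Atp5l, -1.30 for Ndufa8, -1.17 for Uqcr10, -1.01 for Atp5j2, -0.94 for Sdhb and -0.83 for Uqcr11. It was tested by edgeR's interaction contrast, where the adjusted p ran from 0.249 to 0.400, so none passed the threshold. The genes were picked by the separation of these same libraries, and their differences are no independent support.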

How the results depend on the processing

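No paired analysis was possible because the groups share no replicate numbers. In every alternative run for bulk tumours and TAM-MG the median of the respiratory chain genes kept its sign, and 0 genes were called, except for 1 called lower in TAM-MG by DESeq2. For the difference of effects DESeq2 called 6 genes lower and the other alternatives 0. The level of TAM-MG against bulk tumours depended on scaling: 44 were called higher and 7 lower (median 0.61) with an equal mean of log CPM (29.2% and 23.8% of all genes), 42 lower with library size only (40.1%), 14 higher and 47 lower with the length and GC correction (20.6% and 31.7%), and 11 lower (median 0.24) with fl/fl libraries only (22.2%). The cause was not tested. Single genes changed sign, as log2 fold changes. With DESeq2 the sign turned for Atp5b -0.0096 in bulk tumours, Uqcrfs1 -0.12 for the level, Atp5f1 -0.0129 for the difference of effects. With DESeq2-type (RLE) size factors the sign turned for Atp5b -0.0028 in bulk tumours, Uqcrfs1 -0.12 for the level, Atp5f1 -0.0163 for the difference of effects. With at least 10 counts in every library the sign turned for Atp5b -0.0099 in bulk tumours, Uqcrfs1 -0.19 for the level. With an equal mean of log CPM the sign turned for Sdha 0.11, Uqcrh 0.0822 in bulk tumours, Sdha -0.27, Ndufaf7 -0.17, Cox8a -0.33, Atp5f1 -0.18 in TAM-MG, Sdhc 0.61, Atp5b 0.76 for the level, Sdha -0.29, Uqcrc2 -0.12, Ndufs8 -0.30, Atp5f1 -0.39 for the difference of effects. With the length and GC correction the sign turned for Sdha 0.0943, Atp5o -0.0097, Atp5s 0.0745 in bulk tumours, Sdhd 0.18, Cox5b 0.0033, Atp5c1 0.33 in TAM-MG, Uqcrfs1 -1.27, Cox4i1 -0.32, Atp5a1 -0.22, Atp5c1 -0.35, Atp5o -0.0966, Cox7a2l -0.28 for the level, Atp5c1 0.19 for the difference of effects. With library size only the sign turned for Atp5b -0.0859, Atp5c1 -0.0696, Atp5o -0.0001 in bulk tumours, Ndufs1 -0.29, Uqcrfs1 -0.52, Atp5a1 -0.17 for the level, Sdhc 0.0147 for the difference of effects. With limma on log2(TPM + 1), with or without its filter, the sign turned for Uqcrc2 0.28, Cox5b -0.0757, Atp5b -0.14, Atp5c1 -0.17, Atp5o -0.21, Cox6a2 -0.26, Cox6a1 -0.30 in bulk tumours, Atp5b 0.0405, Atp5c1 0.042 in TAM-MG. With limma on log2(TPM + 0.1) the sign turned for Uqcrc2 0.29, Cox5b -0.0758, Atp5b -0.14, Atp5c1 -0.17, Atp5o -0.21, Cox6a2 -0.29, Cox6a1 -0.30 in bulk tumours, Atp5b 0.0406, Atp5c1 0.0421 in TAM-MG. Without a filter on low counts the sign turned for Atp5b -0.014, Atp5c1 -0.0009 in bulk tumours. With each library left out in turn, ranges that cross 0 were Atp5b -0.19 to 0.14, Atp5c1 -0.21 to 0.19, Atp5o -0.24 to 0.32, Atp5s -0.61 to 1.48, Cox5b -0.0418 to 0.30, Cox6a2 -0.95 to 1.03, Ndufs8 -0.64 to 0.15, Sdha -0.19 to 0.18, Uqcrh -0.17 to 0.14 in bulk tumours, Atp5c1 -0.37 to 0.28, Cox6b2 -8.88 to 1.49, Ndufaf7 -0.21 to 0.86, Sdha -0.0515 to 0.31, Sdhd -0.41 to 0.0071 in TAM-MG, Ndufs1 -0.0884 to 0.33, Uqcrfs1 -0.17 to 0.0867 for the level, Atp5b -0.39 to 0.0453, Atp5c1 -0.36 to 0.38, Atp5f1 -0.14 to 0.47, Ndufs8 -0.21 to 0.65, Sdhc -0.23 to 0.25 for the difference of effects. Leaving an arm with 1 library assumes that it varies like the other group. Depth limits the isoforms, which had 0 to 1051 counts per library.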
